A study of Homo sapiens with 18 samples.

Results

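Death receptors, BCL2 family proteins and caspases carry out apoptosis, and 8 of their genes were followed in OVCAR5 cells exposed to stearate or oleate: TNFRSF10A, TNFRSF10B, BCL2L11, PMAIP1, MCL1, BCL2L1, CASP4 and CASP8. They were taken by gene symbol, through the Ensembl identifiers, from the 60483 genes listed in the deposited expression table, and all 8 were among the 13789 genes that had a mean of at least 1 TPM (transcripts scaled to a common total per sample) and were tested. OVCAR5 cells are a human cell line established from an ovarian cancer. RNA was sequenced from 18 samples, 3 replicates in each of 6 conditions. Every condition used medium with fatty-acid-free bovine serum albumin for 24 h, which in the control conditions held DMSO (the vehicle) or 1 µM CAY10566, an inhibitor of the desaturase SCD1. The stearate conditions added 50 µM stearate to DMSO (stearate+DMSO) or to 1 µM CAY10566 (stearate+CAY10566), and the oleate conditions, oleate+DMSO and oleate+CAY10566, added 50 µM oleate in the same way. The line was labelled wild type, and the labels named no batch, day or separate culture for the replicates, so the p-values below measure the spread between these samples, which may be technical.

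Apoptosis starts along either of a pair of routes. Death receptors at the cell surface, when bound by their ligands, recruit an adaptor and activate the initiator caspase-8, whereas in the mitochondrial route BH3-only proteins bind the guardian proteins of the BCL2 family and release the pore formers that open the outer mitochondrial membrane. Prolonged stress of the endoplasmic reticulum is linked to both through CHOP, a transcription factor encoded by DDIT3 that is known to raise the death receptor gene TNFRSF10B and the BH3-only gene BCL2L11. Stearate is a saturated fatty acid, and oleate differs from it by a single double bond that SCD1 puts in. The question the comparisons address is whether RNA of these genes differed between cells given stearate, oleate or no fatty acid, and whether SCD1 inhibition changed those differences.

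The samples were much alike, with correlations across genes of 0.982 to 0.987 between replicates and 0.978 to 0.987 between samples of different conditions. TPM keeps no record of read numbers, so the depth behind each value is unknown. All 6 epithelial markers checked (EPCAM, CDH1 and 4 keratin genes) were tested, and their summed level ran from 2992 to 3134 TPM in the controls, from 2410 to 2602 TPM with stearate and from 2729 to 3045 TPM with oleate. Of 4 serous ovarian markers, PAX8 (mean 11.8 TPM) and MSLN (1.02 TPM) were tested, whereas WT1 and MUC16 had mean TPM under 1. The labels give the line as serous adenocarcinoma. None of the 3 immune and 3 endothelial markers reached a mean of 1 TPM, with summed levels of at most 0.72 and 2.39 TPM in any sample, and 1 of 4 fibroblast markers did, with summed levels of 3.1 to 7.17 TPM. The lower epithelial sum with stearate moved with the comparisons below, and its part in them was not tested.

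TPM is a per-length measure, so levels can be compared between genes. The most abundant of the 8 was BCL2L1, which encodes the guardian BCL-XL, at 381 ± 22.7 TPM (SD, n = 18), higher than 97.7% of all tested genes. CASP4, the inflammatory caspase-4, followed at 237 ± 19.4 TPM. MCL1, a short-lived guardian, stood at 150.3 ± 10.6 TPM, just above the death receptor gene TNFRSF10B (DR5) at 137 ± 11.6 TPM. PMAIP1, which encodes the BH3-only protein NOXA, measured 56.4 ± 4.96 TPM and CASP8 50.3 ± 3.37 TPM. TNFRSF10A, which encodes the sister receptor DR4, reached 23.6 ± 2.45 TPM, and BCL2L11, which encodes the BH3-only protein BIM, was lowest at 8.79 ± 1.54 TPM, above 38.3% of tested genes. Each gene lay below the next higher one in 18 of 18 samples, except CASP8, which lay below PMAIP1 in 16, so that only these neighbours changed places. The coefficient of variation over all samples was between 5.94% for BCL2L1 and 17.5% for BCL2L11.

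**Figure D1:**
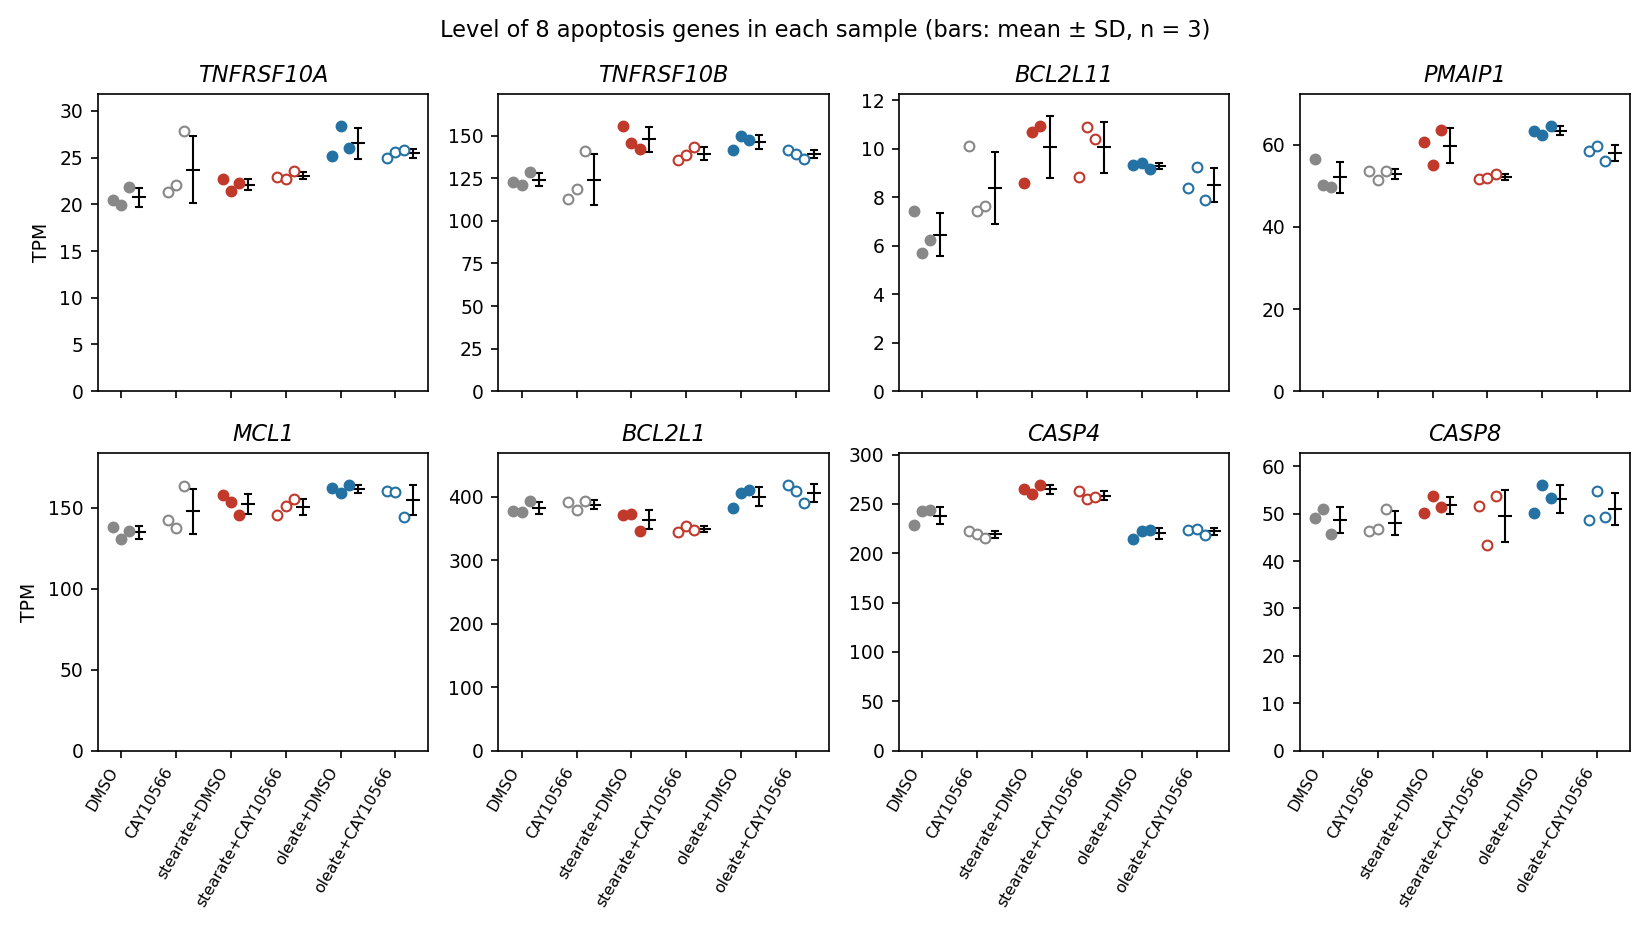
TPM (vertical axes, from 0) of the 8 genes in each of the 18 samples, by condition (horizontal axes); points are samples and bars the mean ± SD of 3. The 6 stearate samples of CASP4, from 254.58 to 268.83 TPM, sit above all others, and those of BCL2L1, from 344.16 to 373 TPM, sit below all others.

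Comparisons were made on the log2(TPM + 1) scale with limma over all tested genes, with Benjamini-Hochberg adjustment (FDR). This scale understates the change of low genes. The control, stearate and oleate groups held 6 samples each, 3 with DMSO and 3 with CAY10566, and both fatty acid comparisons used the same 6 controls. A gene was said to rise or fall at an FDR under 0.05, and a log2 difference over 0.322 in size, the fold limit named in the study's methods, was noted separately. In bulk RNA, a change in every cell cannot be told apart from a larger change in some of the cells or from a loss of cells of 1 kind. Exact permutation tests on mean TPM, two-sided over all 924 splits of 6 against 6, accompany the key genes. They cannot give a p below 0.00216, and 48 of them were run in all, 24 on TPM and 24 after the rescaling described with the size factors.

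With stearate, CASP4, TNFRSF10B and BCL2L11 rose and BCL2L1 fell against the controls. These were 3 of 8 genes higher, where 13.5% of all tested genes were higher, and 1 of 8 lower, where 5.97% were. BCL2L11 alone both passed and exceeded 0.322, as 3.46% of tested genes did upward. The median difference of the 8 genes was 0.10 on the log2 scale, against 0.06 over all tested genes.

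CASP4 is a caspase that binds intracellular bacterial lipopolysaccharide and has also been placed at the endoplasmic reticulum. It lies on chromosome 11 from 104942866 to 104969366 on the minus strand (GRCh38, GENCODE release 44). In the controls it ranged from 215.42 to 243.71 TPM with a median of 225.42, and with stearate from 254.58 to 268.83 TPM with a median of 261.77. All 6 stearate samples lay above all controls, which 4.7% of tested genes showed upward. The means were 229 ± 11.9 and 261 ± 5.33 TPM (SD, n = 6 each), a log2 difference of 0.19 (standard error 0.029, FDR 0.000181 from limma; exact permutation test, p = 0.00216).

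BCL2L1 lies on chromosome 20 from 31664452 to 31723989 on the minus strand. It ranged from 376.48 to 393.32 TPM in the controls, with a median of 384.995, and from 344.16 to 373 TPM with stearate, with a median of 350.955. All 6 stearate samples were below all controls, as for 3.09% of tested genes. The mean fell from 385 ± 8.07 to 356 ± 12.9 TPM (SD, n = 6 each), with a log2 difference of -0.11 (standard error 0.027, FDR 0.00674 from limma; exact permutation test, p = 0.00216).

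CASP4 and BCL2L1 were thus the genes whose stearate and control samples did not overlap, in opposite directions. Their promoters are shown for that reason, 250 bases upstream of the start in RefSeq (GRCh38.p14), read 5′ to 3′ along the gene's strand. The windows of 5 of the 8 genes could be matched by symbol. Those of CASP4 and, below, BCL2L11 lie inside the GENCODE spans given for these genes, and that of BCL2L1 reaches into its span. The RefSeq starts used thus differ from the outermost GENCODE starts. Capitals mark matches, on either strand, to the CCAAT box (CCAAT), the GC box (GGGCGG), the core TGACGT of the cAMP response element (TGACGTCA) and the element TGATGCAA, in which CHOP or ATF4 can bind. Of 35116 promoter windows of the same length, 32% held CCAAT, 42.6% GGGCGG, 7.1% TGACGT, 1.65% TGACGTCA and 0.772% TGATGCAA. The CASP4 window is chr11:104968575-104968824 on the minus strand, with 2 CCAAT boxes and 1 GC box, and that of BCL2L1, the most 5′ of 2 entries, is chr20:31723964-31724213 on the minus strand, with 0 matches.
CASP4: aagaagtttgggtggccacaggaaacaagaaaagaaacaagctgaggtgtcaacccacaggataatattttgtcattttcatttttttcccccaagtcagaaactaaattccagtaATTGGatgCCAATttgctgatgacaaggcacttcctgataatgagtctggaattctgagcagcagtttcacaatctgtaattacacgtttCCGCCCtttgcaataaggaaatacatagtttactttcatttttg
BCL2L1: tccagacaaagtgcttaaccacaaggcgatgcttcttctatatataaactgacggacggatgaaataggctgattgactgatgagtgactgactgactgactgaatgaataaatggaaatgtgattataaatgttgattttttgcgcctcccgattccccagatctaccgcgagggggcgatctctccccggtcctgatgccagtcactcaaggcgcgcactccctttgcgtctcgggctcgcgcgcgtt

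TNFRSF10B encodes the TRAIL receptor DR5 and lies on chromosome 8 from 23020133 to 23069031 on the minus strand. Its 3 DMSO controls measured 122.74, 121.22 and 128.42 TPM and its 3 CAY10566 controls 112.77, 118.59 and 141.06 TPM. With stearate+DMSO it measured 155.81, 145.67 and 142.08 TPM, and with stearate+CAY10566 135.8, 138.93 and 143.56 TPM. In 4 of 6 stearate samples it lay above all controls, and the groups overlapped through the single control at 141.06 TPM, CAY10566 replicate 3. The mean was 124 ± 9.75 TPM without and 144 ± 6.90 TPM with stearate (SD, n = 6 each), with a log2 difference of 0.21 (standard error 0.044, FDR 0.00289 from limma; exact permutation test, p = 0.00649).

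BCL2L11 encodes BIM, which binds all guardians of the family. It lies on chromosome 2 from 111119378 to 111168444 on the plus strand. Its DMSO controls measured 7.44, 5.71 and 6.22 TPM and its CAY10566 controls 10.1, 7.41 and 7.63 TPM, against 8.59, 10.68 and 10.94 TPM with stearate+DMSO and 8.85, 10.9 and 10.4 TPM with stearate+CAY10566. Here the high control was CAY10566 replicate 1, and 4 of 6 stearate samples lay above it and all other controls. Mean BCL2L11 was 7.42 ± 1.52 TPM in controls and 10.1 ± 1.06 TPM with stearate (SD, n = 6 each), with a log2 difference of 0.41 (standard error 0.097, FDR 0.0066 from limma; exact permutation test, p = 0.013). This was the largest difference among the 8 genes, and also the one with the largest standard error.

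The promoter of BCL2L11 is shown beside that of PMAIP1, the other BH3-only gene of the 8, which did not pass here. BCL2L11 (chr2:111120664-111120913, plus strand) held 1 CCAAT box and 3 GC boxes, and PMAIP1 (chr18:59899746-59899995, plus strand) held 1 TGACGT core and 4 GC boxes. TGATGCAA was in none of the 5 windows, which says only that these letters are not there.
BCL2L11: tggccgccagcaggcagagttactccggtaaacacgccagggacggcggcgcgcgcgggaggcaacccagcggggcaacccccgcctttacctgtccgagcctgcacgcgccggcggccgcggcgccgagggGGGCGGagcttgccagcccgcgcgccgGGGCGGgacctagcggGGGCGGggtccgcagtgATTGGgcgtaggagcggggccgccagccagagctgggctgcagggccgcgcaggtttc
PMAIP1: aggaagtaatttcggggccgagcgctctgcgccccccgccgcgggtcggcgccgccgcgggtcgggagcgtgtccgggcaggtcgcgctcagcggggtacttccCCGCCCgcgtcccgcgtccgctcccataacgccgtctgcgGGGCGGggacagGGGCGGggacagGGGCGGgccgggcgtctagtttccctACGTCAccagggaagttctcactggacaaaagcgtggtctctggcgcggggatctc

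The remaining 4 genes did not pass with stearate. MCL1, at 151 ± 5.12 against 141 ± 11.5 TPM, had a log2 difference of 0.10 (FDR 0.106 from limma), which became 0.15 (FDR 0.00432) without CAY10566 replicate 3, a control at 163.27 TPM. PMAIP1 had a difference of 0.09 (95% interval -0.020 to 0.20, FDR 0.240). CASP8, the initiator caspase of the death receptors, had a difference of 0.06 (95% interval -0.043 to 0.17, FDR 0.398). TNFRSF10A had 0.03 (95% interval -0.096 to 0.16, FDR 0.761).

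TNFRSF10B, BCL2L11, BCL2L1 and CASP4 passed in 18 of 18 fits with 1 sample left out and after rescaling by size factors. When the trend of each sample on transcript length and GC content was removed, BCL2L1 had -0.07 (FDR 0.103), and with the sample mean removed as well CASP4 had 0.07 (FDR 0.312); within the CAY10566 samples alone, 3 against 3, only CASP4 passed (0.23, FDR 0.00915), 1 of 8 where 0.529% of tested genes were higher and 1.24% lower, with TNFRSF10B at 0.17 (FDR 0.293), BCL2L11 at 0.24 (FDR 0.399) and BCL2L1 at -0.15 (FDR 0.0718). Within the DMSO samples alone BCL2L1 had -0.07 (FDR 0.224), whereas TNFRSF10B, BCL2L11, CASP4 and also MCL1 (0.18, FDR 0.019) rose, 4 of 8 higher and 0 lower, where 12% of tested genes were higher and 3.69% lower.

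**Figure D2:**
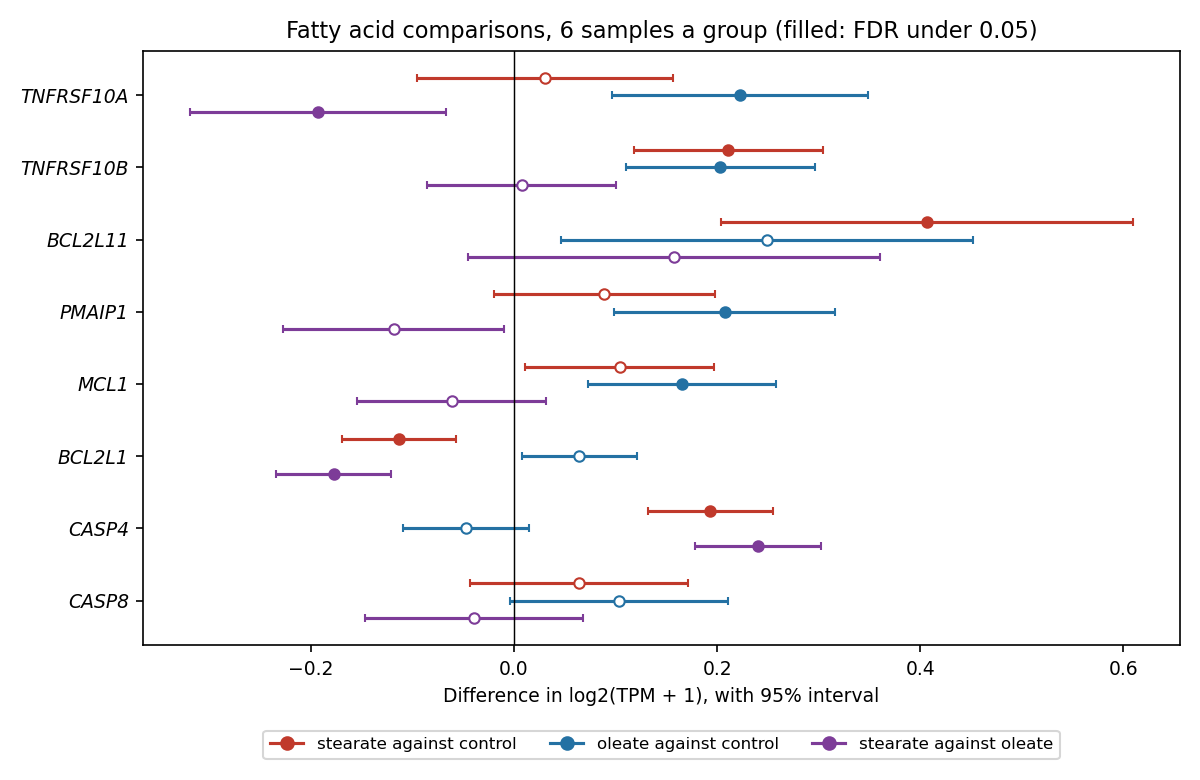
Difference in log2(TPM + 1) (horizontal axis) of each gene (vertical axis) for the 3 comparisons of fatty acid groups, 6 samples each; bars are 95% intervals of single genes and filled points have an FDR under 0.05. CASP4 and BCL2L1 lie on opposite sides of 0 in both comparisons with stearate, whereas TNFRSF10B sits at 0.21 and 0.20 for stearate and oleate against the same controls.

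With oleate, TNFRSF10B, PMAIP1, MCL1 and TNFRSF10A rose against the controls. These were 4 of 8 genes, where 23% of all tested genes were higher, and 0 of 8 fell, where 2.7% did (limma; 6 of the 8, all of them higher, and 38% of tested genes had an unadjusted p under 0.05). No gene of the 8 both passed and exceeded 0.322 in size, as 6.9% of tested genes did. For 0 of 8 were all oleate samples above or below all controls, against 3.49% and 0.573% of tested genes. The median difference was 0.18, against 0.09 over all tested genes.

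Among the death receptors, TNFRSF10B measured 141.87, 149.87 and 147.35 TPM with oleate+DMSO and 141.63, 139.45 and 136.57 TPM with oleate+CAY10566. Its mean of 142.8 ± 4.96 TPM (SD, n = 6) was 0.20 above the controls on the log2 scale (standard error 0.044, FDR 0.00444 from limma; exact permutation test, p = 0.00649). TNFRSF10A lies on chromosome 8 from 23190452 to 23225102 on the minus strand. It ranged from 24.95 to 28.41 TPM with oleate, with a median of 25.705, and from 19.91 to 27.84 TPM in the controls, with a median of 21.59. Apart from CAY10566 replicate 3 at 27.84 TPM, the controls were at or below 22.04 TPM and so below every oleate sample. The log2 difference was 0.22 (standard error 0.060, FDR 0.0127 from limma; exact permutation test, p = 0.013).

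PMAIP1 encodes NOXA, a BH3-only protein that binds MCL1, and lies on chromosome 18 from 59899996 to 59904305 on the plus strand. It measured 63.32, 62.43 and 64.61 TPM with oleate+DMSO and 58.37, 59.81 and 56 TPM with oleate+CAY10566, against 49.71 to 56.44 TPM (median 52.51) in the controls. In 5 of 6 oleate samples it lay above all controls. Controls averaged 52.5 ± 2.55 TPM and oleate samples 60.8 ± 3.27 TPM (SD, n = 6 each), with a log2 difference of 0.21 (standard error 0.052, FDR 0.00864 from limma; exact permutation test, p = 0.00433).

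MCL1 lies on chromosome 1 from 150560895 to 150579738 on the minus strand. It ranged from 130.62 to 163.27 TPM (median 137.71) in the controls and from 144.26 to 163.79 TPM (median 159.93) with oleate. The highest control, CAY10566 replicate 3, alone made the groups overlap. The other controls were at or below 142.39 TPM, below even the lowest oleate sample, oleate+CAY10566 replicate 3. The group means were 141 ± 11.5 and 158 ± 7.02 TPM (SD, n = 6 each), and the log2 difference was 0.17 (standard error 0.044, FDR 0.0123 from limma; exact permutation test, p = 0.0195). BCL2L11 had a difference of 0.25 (95% interval 0.047 to 0.45, FDR 0.065), which passed without CAY10566 replicate 1 (0.33, FDR 0.0109) or without oleate+CAY10566 replicate 3 (0.28, FDR 0.0463). Its difference was 0.47 (FDR 0.0166) in the DMSO samples alone and 0.03 (FDR 0.950) in the CAY10566 samples alone. CASP8, on chromosome 2 from 201233443 to 201361836 on the plus strand, had a difference of 0.10 (FDR 0.145). BCL2L1, at 403 ± 13.5 TPM, had 0.06 (FDR 0.0861; 0.08 and FDR 0.0415 without oleate+DMSO replicate 1), and CASP4, at 221 ± 4.20 TPM, had -0.05 (FDR 0.251).

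These calls changed with the scaling between samples and with 1 control. With size factors, TNFRSF10B still rose (0.10, FDR 0.0323), TNFRSF10A (0.13, FDR 0.0989), PMAIP1 (0.11, FDR 0.114) and MCL1 (0.07, FDR 0.149) did not pass, and CASP4 fell (-0.15, FDR 0.0146). These were 1 of 8 higher and 1 of 8 lower, where 9.07% and 9.12% of tested genes were. With size factors and without the control CAY10566 replicate 3, TNFRSF10A (0.18, FDR 0.0036), TNFRSF10B (0.13, FDR 0.00381) and MCL1 (0.09, FDR 0.01) rose and CASP4 fell (-0.18, FDR 0.000447), where 14.6% and 14.1% of tested genes were higher and lower, while PMAIP1 had 0.10 (FDR 0.149). With the length and GC trend and the sample mean removed, PMAIP1 kept its call (0.18, FDR 0.0191), TNFRSF10B (0.09, FDR 0.0534), TNFRSF10A (0.17, FDR 0.0532) and MCL1 (0.03, FDR 0.526) did not pass, and CASP4 again fell (-0.19, FDR 0.01), where 5.5% of tested genes were higher and 6.31% lower. With the trend alone removed, all 4 genes rose, as did BCL2L1 (0.09, FDR 0.0338), and CASP4 fell (-0.10, FDR 0.039), where 22.4% of tested genes were higher and 1.94% lower.

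DMSO and CAY10566 samples were also fitted apart. In the CAY10566 samples alone 0 of the 8 passed (limma, 3 against 3), where 0.029% of all tested genes did. In the DMSO samples alone 6 of the 8 did: TNFRSF10A (0.34, FDR 0.00634), TNFRSF10B (0.24, FDR 0.00639), BCL2L11, PMAIP1 (0.28, FDR 0.0143) and MCL1 (0.26, FDR 0.00396) rose and CASP4 fell (-0.11, FDR 0.0369). Of all tested genes 22.4% were higher and 3.73% lower there. Whether a difference depended on the inhibitor is tested by the interaction terms below.

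Next, stearate and oleate were compared directly, at the same 50 µM and 24 h. CASP4 was higher with stearate, 1 of 8 genes where 6.85% of tested genes were higher. BCL2L1 and TNFRSF10A were lower, 2 of 8 where 14.3% were. None of the 3 exceeded 0.322 in size, whereas 6.37% of tested genes both passed and did so. For CASP4, all 6 stearate samples were above all oleate samples, which held for 2.94% of tested genes. The oleate samples had 214.01 to 224.82 TPM (median 222.885), and the log2 difference was 0.24 (standard error 0.029, FDR 9.59e-06 from limma; exact permutation test, p = 0.00216).

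For BCL2L1 and TNFRSF10A, all 6 stearate samples were below all oleate samples, as for 7.28% of tested genes. BCL2L1 had 382.94 to 418.07 TPM with oleate (median 407.735), and its log2 difference was -0.18 (standard error 0.027, FDR 0.000111 from limma; exact permutation test, p = 0.00216). TNFRSF10A had 21.44 to 23.53 TPM with stearate (median 22.73) and a log2 difference of -0.19 (standard error 0.060, FDR 0.0286 from limma; exact permutation test, p = 0.00216). For TNFRSF10B, the sister receptor gene, the difference was 0.0079, with a 95% interval of -0.085 to 0.10 (FDR 0.926). BCL2L11 had 0.16 (95% interval -0.045 to 0.36, FDR 0.268) and PMAIP1 -0.12 (95% interval -0.23 to -0.0096, FDR 0.115; -0.16 and FDR 0.0331 without stearate+DMSO replicate 3). MCL1 had -0.06 (95% interval -0.15 to 0.031, FDR 0.353) and CASP8 -0.04 (95% interval -0.15 to 0.068, FDR 0.634). These intervals bound the differences, and a missed threshold does not show that stearate and oleate acted alike.

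After rescaling by size factors the same 3 genes passed in the same directions. TNFRSF10B then had 0.05 (FDR 0.306 from limma), at 143 TPM with stearate and 138 TPM with oleate. Its exact permutation test gave p = 0.818 before and p = 0.0173 after rescaling. For BCL2L11 the exact permutation test gave p = 0.0455 before and p = 0.0281 after rescaling, where limma had an FDR of 0.157. PMAIP1 was also lower with stearate when the length and GC trend was removed (-0.21, FDR 0.0127), and when the sample mean was removed as well (-0.17, FDR 0.0134). TNFRSF10A had an FDR of 0.0601 when no filter on TPM was used and did not pass without stearate+DMSO replicate 2 (FDR 0.0608), stearate+DMSO replicate 3 (0.0545) or oleate+DMSO replicate 2 (0.0696), nor in the CAY10566 samples alone (-0.14, FDR 0.467), and BCL2L1 had -0.14 (FDR 0.061) in the DMSO samples alone.

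CAY10566 was then compared with DMSO over 9 samples each, adjusted for fatty acid. Of the 8 genes, 0 passed, and of all tested genes 0% did (limma); 2 of the 8, against 5.42% of all tested genes, had an unadjusted p under 0.05. These were PMAIP1, with -0.10 (95% interval -0.18 to -0.020, FDR 0.875), and CASP4, with -0.05 (95% interval -0.093 to -0.00082, FDR 0.900). SCD, which encodes the enzyme that CAY10566 inhibits, differed by 0.22 on the log2 scale (FDR 0.642 from limma).

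Within single fatty acid groups, 3 samples against 3, 0 of the 8 genes passed in any group (limma), where 0%, 0.0145% and 0% of tested genes did without fatty acid, with stearate and with oleate. Without fatty acid, 4 of 8 had an unadjusted p under 0.05, against 10.1% of tested genes. BCL2L11 measured 8.38 ± 1.49 TPM with CAY10566 and 6.46 ± 0.889 TPM with DMSO (SD, n = 3 each), a difference of 0.33 (95% interval 0.070 to 0.58, FDR 0.441 from limma). CASP4 measured 219 ± 3.55 and 238 ± 8.49 TPM, a difference of -0.12 (FDR 0.377), and the CAY10566 samples all lay below the DMSO samples, as for 6.17% of tested genes. TNFRSF10A (0.18) and MCL1 (0.13) both had an FDR of 0.473, with CAY10566 replicate 3 the highest control for each. Leaving out 1 sample at a time gave 0.20 to 0.42 for BCL2L11, 0.061 to 0.25 for TNFRSF10A and 0.053 to 0.18 for MCL1.

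With stearate, PMAIP1 measured 60.72, 55.1 and 63.55 TPM in DMSO and 51.63, 52 and 52.99 TPM with CAY10566. All CAY10566 samples lay below all DMSO samples, as for 8.66% of tested genes, and the log2 difference was -0.19 (95% interval -0.31 to -0.073, FDR 0.651 from limma). It was the 1 gene of 8 with an unadjusted p under 0.05, which 5.52% of tested genes had. With oleate it was again the 1 of 8 (background 4.72%), at 63.5 ± 1.10 TPM with DMSO and 58.1 ± 1.92 TPM with CAY10566, a difference of -0.13 (FDR 0.979 from limma).

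The interaction terms, which test whether the inhibitor changed the fatty acid difference, passed for 0 of the 8 genes (limma), against 0.00725% of tested genes for stearate and 0% for oleate. For stearate, 1 of 8 had an unadjusted p under 0.05, against 9.36% of tested genes: PMAIP1, with -0.21 (FDR 0.504). For oleate, 3 of 8 did, against 10.3%: BCL2L11 with -0.44 and CASP4 with 0.13 (FDR 0.449 each) and MCL1 with -0.19 (FDR 0.465). An inhibitor effect on these genes was thus not detected, and the intervals drawn in the plot of CAY10566 against DMSO give the range of effects left possible.

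**Figure D3:**
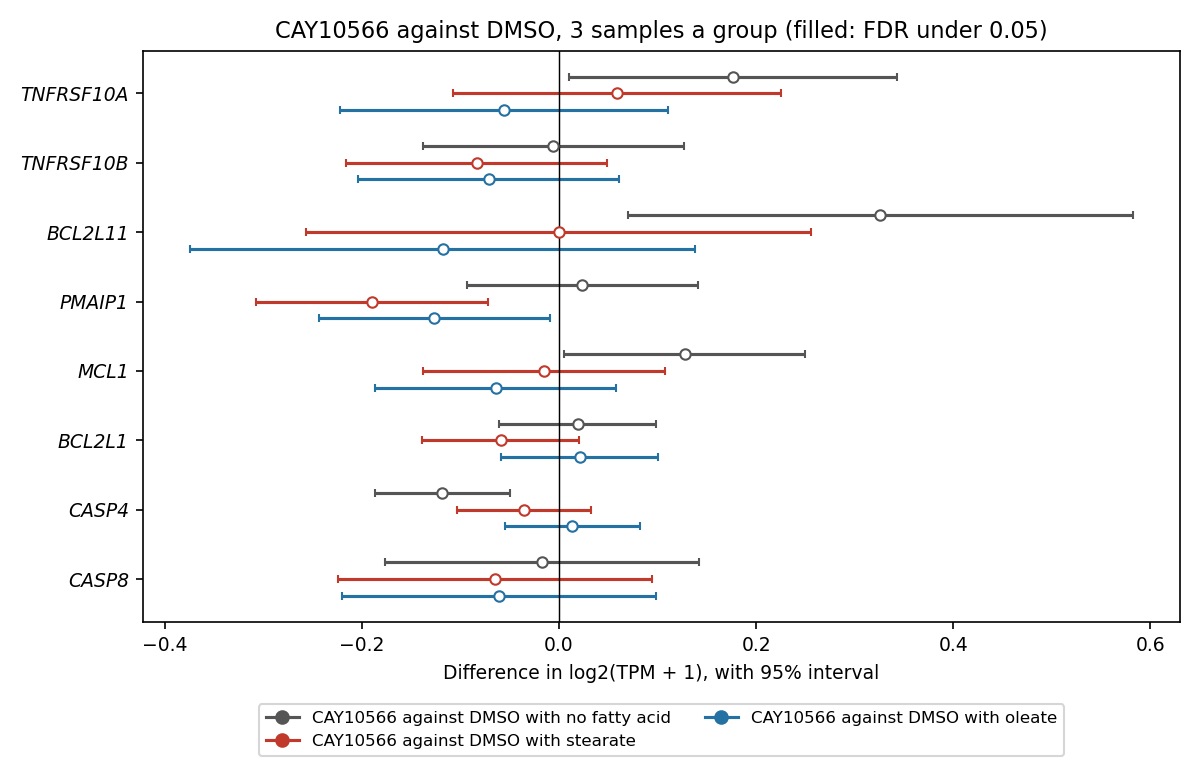
Difference in log2(TPM + 1) between CAY10566 and DMSO (horizontal axis) for each gene (vertical axis), without fatty acid, with stearate and with oleate, 3 samples a group; bars are 95% intervals of single genes. No point is filled, since 0 of 8 passed an FDR of 0.05; BCL2L11 without fatty acid lies farthest from 0, at 0.33.

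TPM are shares of the total, and the samples differed in a size factor, the median over genes of each sample's ratio to the geometric mean of all samples. It ran from 0.942 to 1.06, with means of 0.966 in the controls, 1.01 with stearate and 1.04 with oleate, and CAY10566 replicate 3 had 1.02 while the other controls had at most 0.968. Over the 18 samples, Pearson's r between log2(TPM + 1) and the log2 size factor was 0.92 for MCL1 and 0.86 for TNFRSF10B, and 0.90 and 0.80 within conditions. It was 0.73 for PMAIP1, 0.72 for TNFRSF10A and 0.64 for CASP8, and 0.21, 0.62 and 0.47 within conditions. For BCL2L11 it was 0.45, for BCL2L1 0.37 and for CASP4 -0.10, and within conditions -0.022, 0.65 and -0.14. The median over all tested genes was 0.33 over the 18 samples. These correlations are descriptions over samples that share conditions and libraries. Rescaling moved the median of all genes from 0.06 to 0.0066 for stearate and from 0.09 to -0.00096 for oleate against control. After rescaling, TNFRSF10B measured 143 TPM with stearate and 128 TPM in the controls, and all 6 stearate samples then lay above all controls, as for 3.15% of tested genes (exact permutation test, p = 0.00216), while CASP4 measured 260 and 237 TPM and overlapped (exact permutation test, p = 0.0238).

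**Figure D4:**
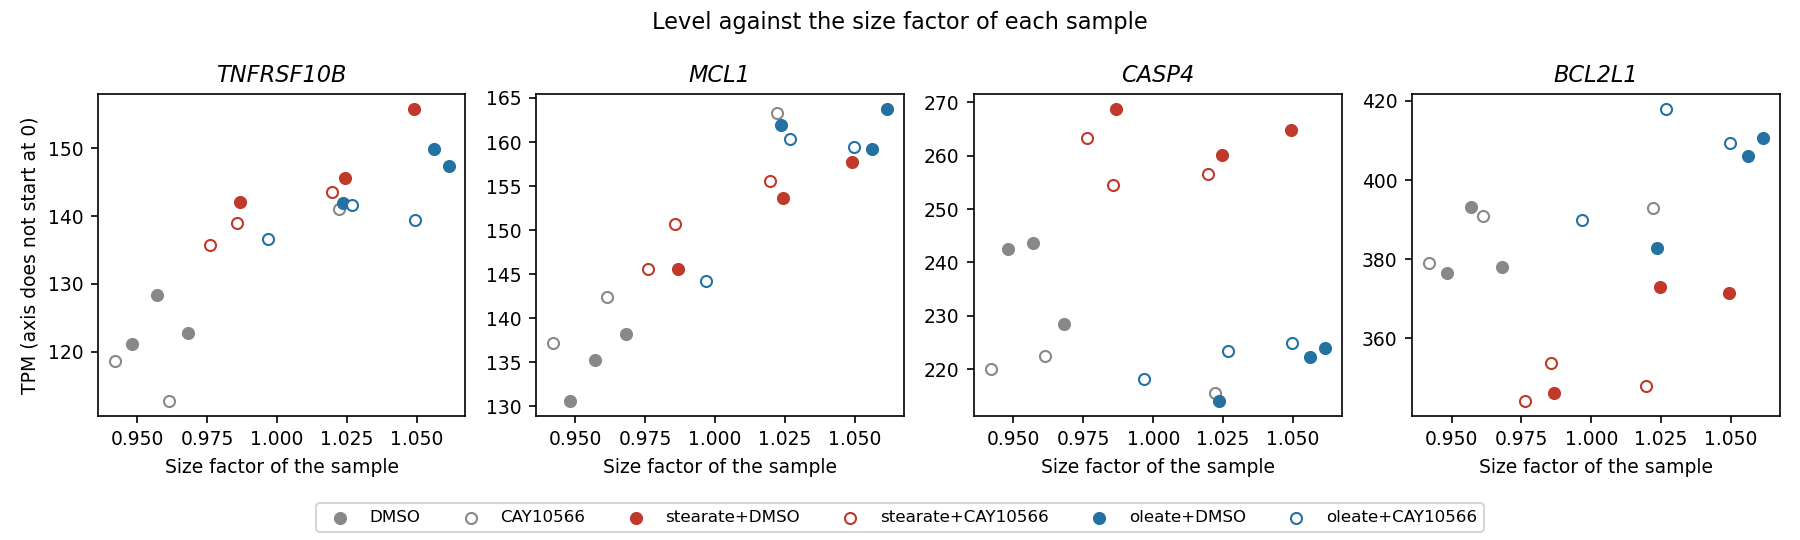
TPM (vertical axes, not from 0) of 4 genes against the size factor of each of the 18 samples (horizontal axes). MCL1 and TNFRSF10B follow the size factor (r = 0.92 and 0.86), whereas the stearate samples of CASP4 lie above, and those of BCL2L1 below, samples of like size factor.

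The members were also described against each other and against other genes, with no test. Within conditions, the DR4 and DR5 genes TNFRSF10A and TNFRSF10B varied together (r = 0.89, n = 18), as did TNFRSF10B and MCL1 (0.79). BCL2L1 and CASP4 had r = -0.77 over all 18 samples and 0.23 within conditions. Among the 10142 genes with a mean of at least 5 TPM, the patterns most like that of TNFRSF10B were CSRNP1 (r = 0.95), RBM4 (0.94) and KHNYN (0.94). Those most like BCL2L11 were FAM110C (0.87), TTC26 (0.84) and METTL4 (0.83). All these points share libraries and size factors.

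The 8 genes fall among the death receptors, BH3-only genes, guardians and caspases. They were set within 8 role lists of 60 apoptosis and CHOP-axis genes, of which 54 were tested. The other 6 had mean TPM under 1: the ligand genes TNFSF10 (TRAIL) and FASLG, HRK, BCL2, CASP5 and BIRC7. Against the controls, 17 of the 54 were higher and 7 lower with stearate, where 13.5% of all tested genes were higher and 5.97% lower. With oleate 11 were higher and 0 lower (limma; 22 had an unadjusted p under 0.05), where 23% and 2.7% of tested genes were. With size factors the counts became 12 higher and 10 lower with stearate (7.92% and 10.2% of tested genes), and 4 higher and 7 lower with oleate (9.07% and 9.12%). The median differences without size factors were 0.08 and 0.09, against 0.06 and 0.09 over all tested genes. After rescaling they were 0.017 and -0.0011, against 0.0066 and -0.00096. Genes named below that changed by less than 0.322 in size were chosen after their values were seen.

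Of 13 death receptor, ligand and adaptor genes, TNFRSF10B was the 1 higher with stearate, where 13.5% of tested genes were higher. TNFRSF21, the gene of death receptor 6, fell, with 134 ± 9.75 TPM in controls and 104 ± 3.22 TPM with stearate (SD, n = 6 each) and a log2 difference of -0.35 (FDR 1.12e-05 from limma). CFLAR, whose product FLIP blocks caspase-8, also fell (-0.16, FDR 0.0109), which made 2 of 13 lower, where 5.97% of tested genes were. With oleate 4 rose: TNFRSF10A, TNFRSF10B, TNFRSF21 (0.18, FDR 0.00573) and CFLAR (0.12, FDR 0.0357), where 23% of tested genes were higher. With size factors TNFRSF10B alone rose and 2 of the 13 fell, TNFRSF10D (-0.17, FDR 0.0213) and TRADD (-0.19, FDR 0.0493), where 9.07% and 9.12% of tested genes were higher and lower; TNFRSF21 then had 0.08 (FDR 0.116) and CFLAR 0.03 (FDR 0.754). Between stearate and oleate, TNFRSF21 differed by -0.53 (FDR 2.86e-08).

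Among 7 BH3-only genes, BCL2L11 rose with stearate while BID (-0.22, FDR 0.0106) and BIK (-0.18, FDR 0.0391) fell, where 13.5% of tested genes were higher and 5.97% lower. When the length and GC trend was removed, 2 rose and 1 fell (13.1% and 5.17% of tested genes). The counts were the same with the sample mean removed as well (7.69% and 10.3%). In the CAY10566 samples alone 0 of 7 passed (1.77% of tested genes). BIK was also lower with stearate than with oleate (-0.34, FDR 0.000591 from limma). Of 3 pore formers, BOK fell with stearate (-0.16, FDR 0.0363), where 5.97% of tested genes were lower. With size factors 2 of 3 fell (10.2% of tested genes), and 0 of 3 passed with the length and GC trend removed, with the sample mean removed as well or in the DMSO samples alone (limma; 5.17%, 10.3% and 3.69% of tested genes were lower). Among 4 guardians, BCL2A1 rose with stearate (15.9 ± 1.98 TPM in controls, 22.7 ± 2.73 TPM with stearate; SD, n = 6 each) by 0.49 on the log2 scale (FDR 0.000923 from limma), while BCL2L1 fell. BCL2A1 was likewise higher with stearate than with oleate (0.38, FDR 0.00557). The 2 guardians thus moved in opposite directions with stearate, 1 of 4 each way, where 13.5% of tested genes were higher and 5.97% lower. This held with size factors, where BCL2A1 had 0.44 (FDR 0.00361) and BCL2L1 -0.17 (FDR 6.9e-05). In the DMSO samples alone neither passed, and MCL1 was the 1 of 4 higher (12% of tested genes) with 0 lower (3.69%). Between stearate and oleate, 0 of 4 were higher in the DMSO or the CAY10566 samples alone (3.56% and 0.827% of tested genes).

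All 9 tested caspase genes had a positive difference with stearate, with a median of 0.24, as did 9118 of the 13789 tested genes, whose median over all was 0.06. Of these, 5 passed, among them CASP4, CASP2 (0.24, FDR 0.0173), the initiator CASP10 (0.24, FDR 0.0334) and the apoptosome caspase CASP9 (0.20, FDR 0.0451), where 13.5% of tested genes were higher. With size factors 3 of 9 passed and all 9 stayed positive, where 7.92% of tested genes were higher and 7149 positive, but CASP10 (0.19, FDR 0.0839) and CASP9 (0.14, FDR 0.147) did not pass. With the length and GC trend and the sample mean removed, 1 of 9 passed and 8 were positive, where 7.69% of tested genes were higher. APAF1, which forms the apoptosome, rose with stearate (0.29, FDR 0.019) and CYCS, which encodes cytochrome c, fell (-0.12, FDR 0.00347), 1 of 6 apoptosome and mitochondrial factor genes each way (13.5% and 5.97% of tested genes). With size factors 1 rose and 3 fell, and with the length and GC trend and the sample mean removed 0 rose and 3 fell, where 7.69% and 10.3% of tested genes were higher and lower. Of 5 inhibitors of apoptosis, BIRC3 (0.28, FDR 0.00183) and BIRC2 (0.23, FDR 0.00432) rose with stearate, where 13.5% of tested genes were higher. For stearate, 1 of 5 passed with the length and GC trend and the sample mean removed (7.69% of tested genes were higher). In the CAY10566 samples alone 0 of 5 passed (0.529%). With oleate XIAP, an inhibitor of caspases, rose by 0.42 on the log2 scale, between means of 14.4 ± 2.48 and 19.4 ± 2.13 TPM (SD, n = 6 each) (FDR 0.00516 from limma), beside BIRC3 (0.31, FDR 0.00198) and BIRC6 (0.32, FDR 0.0131; 0.22 with FDR 0.053 with size factors). These were 3 of 5 with oleate, where 23% of tested genes were higher. For oleate, 2 of the 5 inhibitors passed with size factors, 0 of 5 with the length and GC trend and the sample mean removed, and 0 of 5 in the CAY10566 samples alone (limma). Of tested genes, 9.07%, 5.5% and 0% were higher in these settings.

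On the CHOP axis, 6 of 7 genes rose with stearate and 1 with oleate (PPP1R15A, 0.16, FDR 0.00176), where 13.5% and 23% of tested genes were higher, and 4 of 7 were higher with stearate than with oleate (6.85% of tested genes). With size factors, 3 rose with stearate (7.92% of tested genes), and with oleate 0 rose and 3 fell (9.12% of tested genes were lower). With the length and GC trend removed, 6 rose with stearate (13.1% of tested genes), and 3 rose and 0 fell with oleate (22.4% and 1.94% of tested genes). When the sample mean was removed as well, 5 rose and 1 fell with stearate (7.69% and 10.3%). In that setting 1 rose and 0 fell with oleate (5.5% and 6.31%). DDIT3 measured 139 ± 8.15 TPM in the controls, 157 ± 5.60 with stearate and 133 ± 3.61 with oleate (SD, n = 6 each). Its log2 difference was 0.18 for stearate (FDR 0.00193 from limma; 0.12 and FDR 0.0619 with size factors) and -0.07 for oleate (FDR 0.164; -0.17 and FDR 0.0126 with size factors). The known CHOP target TNFRSF10B rose with both fatty acids, and with size factors by 0.15 for stearate (FDR 0.00293) and 0.10 for oleate (FDR 0.0323). The level of DDIT3 was 0.24 higher with stearate than with oleate (FDR 6.46e-05), or 0.29 with size factors (FDR 0.000102). Whether TNFRSF10B followed DDIT3 was not tested. CHAC1, a glutathione-degrading enzyme gene downstream of ATF4, rose with stearate by 0.49 (FDR 3.23e-06) and ATF3, a stress-induced transcription factor gene, by 0.36 (FDR 0.000141). SCD had 184 ± 13.6 TPM in the controls, 173 ± 27.6 with stearate and 111 ± 10.3 with oleate, log2 differences of -0.10 (FDR 0.446) and -0.72 (FDR 0.00021 from limma).

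**Figure D5:**
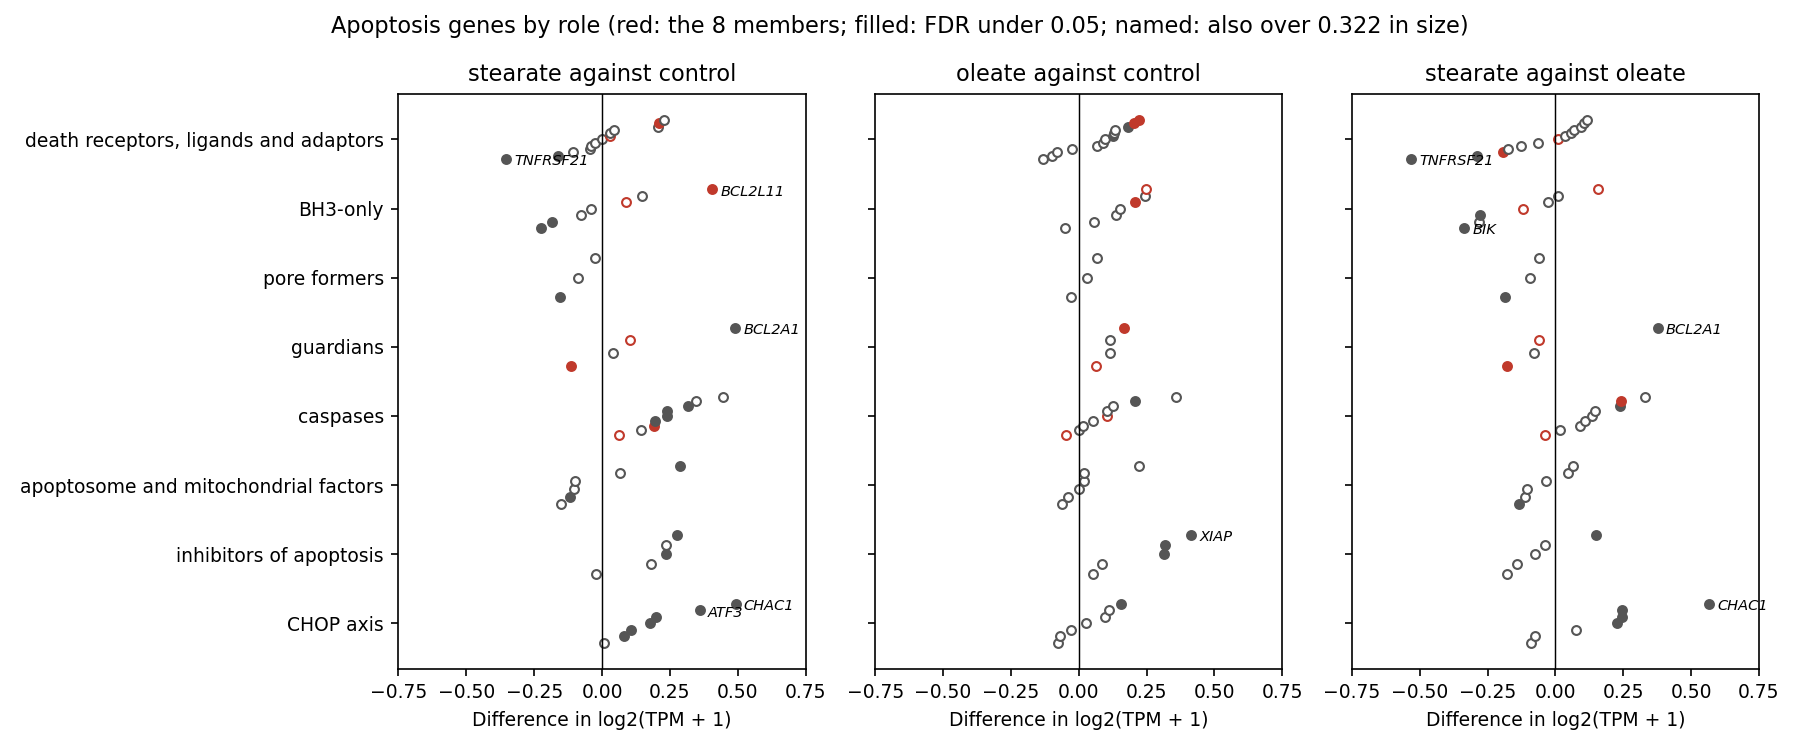
Difference in log2(TPM + 1) (horizontal axes) of the 54 tested genes by role (rows) in the 3 comparisons; the 8 genes are red, filled points have an FDR under 0.05, and names mark those that also exceed 0.322 in size. With stearate all 9 caspases lie to the right of 0 and 6 of 7 CHOP-axis genes are filled, against 1 of 7 with oleate, where 13.5% and 23% of all tested genes were higher.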

How the data were processed

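Per the labels and the study's methods, the authors sequenced 100 bp paired-end reads from stranded mRNA libraries, used Trim Galore for trimming and STAR 2.7.1a for alignment to GRCh38 (Ensembl release 99), and quantified genes by RSEM. They deposited TPM per gene, which has the same sum in every sample, so depth is unknown and precision rests on replicate spread.

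From the deposited TPM, 1 line naming no gene was left out, and 93.1% of identifiers had a symbol. Genes whose mean over 18 samples reached 1 TPM were fitted as log2(TPM + 1) with limma 3.58.1 in R 4.3.3 (lmFit, eBayes with trend, Benjamini-Hochberg over 13789 genes). Fatty acid comparisons used 3 groups of 6, CAY10566 was tested with fatty acid as a covariate, and a model of 6 conditions gave single-group effects and interactions. Intervals are those of single genes at 95%. The procedure was tested on simulated data. Promoters came from RefSeq tables (GRCh38.p14), places from GENCODE release 44. Plots used Python 3.11.15 and matplotlib 3.10.9.

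The 8 genes and the role lists were chosen with earlier results of these data known. Named were all 8 genes, up to 3 genes per role list and comparison with an FDR under 0.05 and a log2 difference over 0.322, DDIT3 and SCD, and the 3 genes with the pattern most like TNFRSF10B and like the gene with the largest change, at a mean TPM of at least 5; other role genes were named after their values were seen. Alternatives were a pseudocount of 0.1, no filter, a minimum mean of 5 TPM, a constant prior variance, median-of-ratios size factors, a replicate block, subtraction, per sample, of a spline fit to length and GC of the transcripts (3 degrees of freedom; 98.8% of tested genes had a length), DMSO or CAY10566 samples only, CAY10566 as a covariate, and each sample left out. Removing the sample mean with that fit, and size factors without CAY10566 replicate 3, were chosen after seeing the data. The values of 1 gene of the role lists are not reported here.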

Additional observations from a re-analysis of the deposited data

Results flagged for a closer look

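In 5 of the 24 groups of 6 samples (8 genes in 3 fatty acid groups), 1 sample stood apart from the other 5 by Dixon's test, which chance does in about 1 in 20 groups. A control, CAY10566 replicate 3, had 27.84 TPM of TNFRSF10A, where the other controls had 19.91 to 22.04, and 163.27 TPM of MCL1, where they had 130.62 to 142.39. It was also the control with the largest size factor, 1.02, whose part in these values was not tested. With oleate, oleate+DMSO replicate 2 had 28.41 TPM of TNFRSF10A against 24.95 to 26.01 in the others, and oleate+CAY10566 replicate 3 had 144.26 TPM of MCL1 against 159.18 to 163.79. With stearate, stearate+CAY10566 replicate 2 had 43.36 TPM of CASP8 against 50.13 to 53.84.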

How the results depend on the processing

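Counts of the 8 genes that passed were 4 for stearate against control, 4 for oleate against control and 3 for stearate against oleate, and those of the 54 tested role genes were 24, 11 and 16. With CAY10566 samples alone, which leaves fewer samples, the counts for the 8 genes were 1 for stearate and 0 for oleate against control, and those for the role genes 6, 0 and 9 (1.77%, 0.029% and 3.68% of all tested genes passed); with DMSO samples alone the role genes numbered 17 for oleate against control and 10 for stearate against oleate (26.1% and 10.4%). For oleate against control, 2 of the 8 passed with size factors, and 2 with the length and GC trend and the sample mean removed. The role genes numbered 18 with that trend removed, 7 with the mean removed as well, and 20 with size factors and without CAY10566 replicate 3, where 24.3%, 11.8% and 28.7% of all tested genes passed (cause not tested). Leaving out 1 sample at a time gave 4 to 5, 4 to 5 and 2 to 3 of the 8 genes, and 20 to 27, 10 to 15 and 14 to 19 role genes. Mean TPM of BCL2L1 with oleate minus that in the controls turned from 17.8 (exact permutation test, p = 0.0216) to -9.65 with size factors (p = 0.145 by the same exact test), so this difference changed sign. CAY10566 and interaction counts were 0 in all alternatives run. Over 2016 limma results for single genes, 1977 kept their side of the threshold, 23 lost it and 16 gained it. Most of the 2016 were CAY10566 and interaction results, in which 0 of the 8 genes passed in any fit. All lost or gained calls were therefore in the fatty acid comparisons. Among limma results that passed, 0 changed sign, and 66 that passed in neither did.

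No pairing by replicate number was seen: deviations of same-numbered samples correlated between -0.18 and 0.10 (median 0.012), with 2 of 45 pairs over 0.1. Only 5 of 18 samples correlated best with their own number. All tested genes, low ones included, counted alike in these correlations, so they cannot show that the samples were unpaired. A replicate block left the counts of the 8 genes at 4, 4 and 3 and gave 22, 12 and 16 role genes.

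Depth is unknown in TPM, so counting error could not be separated from replicate spread.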
